A study of Mus musculus with 2 samples.

Results

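Integrins are the adhesion receptors with which T cells hold on to other cells and to the extracellular matrix. The 10 integrin genes described here were Itgae, Itgal, Itga4, Itga6, Itgav and Itgam, which encode alpha chains, and Itgb1, Itgb2, Itgb3 and Itgb7, which encode beta chains. They were chosen by name, with earlier results of these data known. Their probes were found through the transcript accession that the scanner files give for each probe. All 10 of the 10 genes had a probe, 15 probes in all, out of 17176 genes that could be named on the array. All 10 had a probe well above background on both arrays, so none was lost to a filter on low signal. Well above background is the scanner software's own flag for a spot that exceeds its local background by more than the noise.

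The study compared CD8+ cytotoxic T cells (labelled Wt_CD8 T) with CD4+ helper T cells (labelled Wt_CD4 T). Both were wild-type cells sorted from the spleens of C57B6 mice, and the labels state neither age, sex, number of mice nor the gate of the sort. Each cell type was measured on 1 one-colour Agilent mouse array, and the 2 arrays lay on 1 slide. With 1 array per cell type there was no replicate and no test, and precision is limited by that number of arrays.

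An integrin reaches the cell surface only as a pair of 1 alpha and 1 beta chain, and the pair decides the ligand. A beta chain can serve several alpha chains, so the mRNA of one partner does not give the amount of the pair. On a resting lymphocyte integrins are largely inactive, and signals from the T cell receptor or from chemokine receptors switch them on through talin and kindlin, which bind the beta chain's tail from inside the cell. LFA-1 (αLβ2) mediates the contact of T cells with antigen-presenting and target cells, α4β1 and α4β7 guide them to inflamed tissue and to the gut, and αEβ7 retains T cells in epithelium.

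Signals are given in 2 ways. The processed signal is the spot's brightness after the scanner software's background subtraction, in linear units, with ± for the error that the software itself attached to the spot. It is not scaled between arrays, and the CD4+ array was the brighter one, with a 75th percentile of 508 against 449.9 on the CD8+ array. A level is the log2 of that signal relative to the array's own 75th percentile, and a difference is the level on the CD8+ array minus that on the CD4+ array, so a positive difference means more in CD8+ cells. The only spread at hand was technical. Different probes of a gene gave differences with an SD of 0.15 for bright genes (mean level over 2), 0.20 for genes of middle level and 0.39 for dim genes (mean level under -2).

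The cells' own genes went with the labels. Cd3d, Cd3g and Lck, genes of the T cell receptor complex and its kinase, were bright on both arrays, with processed signals of 38242 or more. Cd3e of the same complex was dimmer, with 1856 on the CD8+ array and 1481 on the CD4+ array. Cd8a was 105.6-fold higher on the CD8+ array. Cd4 was 4.12-fold higher on the CD4+ array (2.58-fold with normexp, a model-based background correction). Its processed signal was low, 66.0 on the CD8+ array and 307 on the CD4+ array. Genes of other cells of the spleen were also measured. Of 13 named macrophage and monocyte markers, 13 were well above background on both arrays, among them Vcam1 with processed signals of 12283 on the CD8+ array and 14916 on the CD4+ array, and the complement gene C1qc with 6699 and 8304. Of 11 B cell markers, 11 were also well above background on both arrays, with a median difference of 0.54. Among these, 10 were higher on the CD8+ array, as were 6425 of all 11961 genes. In such a bulk sample, fewer cells of a type and less RNA per cell cannot be told apart.

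Of the 10 integrin genes, 1 was at least 2-fold higher on the CD8+ array and 2 were at least 2-fold higher on the CD4+ array, while 7 lay within 2-fold. Itgae, the αE chain (CD103), was the one higher in CD8+ cells, and Itgb3 and Itgam, the β3 and αM chains, were the ones higher in CD4+ cells. Among the 11961 named genes well above background on both arrays, 1.96% were 2-fold or more higher on the CD8+ array and 3.83% on the CD4+ array, and 94.2% were less than 2-fold apart. The median difference of the 10 genes was -0.15, against 0.02 over all 11961 genes. Of the genes at least 2-fold apart, 33.8% were higher on the CD8+ array, or 46.9% with each array scaled to its median, which moved the median of all genes by 0.14.

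**Figure D1:**
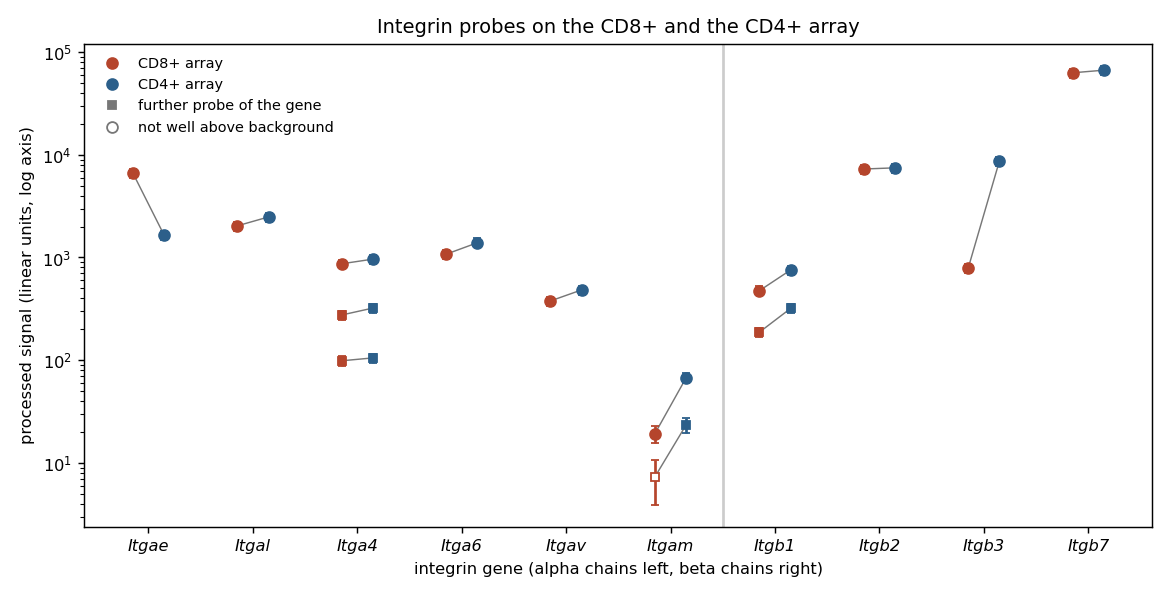
Processed signal (linear units on a log axis) of each integrin probe on the CD8+ array and on the CD4+ array, with error bars of the scanner software's own spot error. Circles are the probe used for the gene and squares its further probes, lines join the same probe on both arrays, and an open symbol is not well above background. Itgae slopes down to the CD4+ array, Itgb3 and Itgam slope up to it, and the other 7 genes run closer to level. Heights of different probes are not comparable, since each probe binds with its own strength.

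The αEβ7 pair, whose ligand is E-cadherin on epithelial cells, differed in its alpha chain. Itgae (probe A_51_P352076) had a processed signal of 6671 ± 667 on the CD8+ array and 1651 ± 165 on the CD4+ array. The signal on the CD8+ array lay far above that on the CD4+ array compared with either error, a difference of 2.19 or 4.57-fold. Only 38 of the 11961 genes had a larger difference towards the CD8+ array, and 2 of the 2602 genes within 1 log2 unit of its mean level, of which 1.08% were at least 2-fold higher there. Over 11 other ways of processing its difference ran from 2.07 to 2.33. The gene was measured by 1 probe with 1 spot. Ways that only change which of a gene's spots or probes are used therefore left its difference at 2.19.

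Itgb7, the β7 chain, was the brightest of the integrin probes. Its processed signal was 62948 ± 6295 on the CD8+ array and 66771 ± 6677 on the CD4+ array. Relative to each array's own scale the difference was 0.09, inside the software's error of 0.20 for that difference, and it became -0.09 after quantile normalization. The raw median brightness of 61132 and 62723 stood close below the scanner's highest value of 65527, neither spot was marked as saturated, and compression near that ceiling was not tested. By these values the αE chain was 4.29-fold further towards the CD8+ array than its β7 partner.

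TGF-beta is known to induce Itgae, and the transcription factor Runx3, which maintains the CD8 lineage, is known to act on it in mouse CD8+ T cells. Of 15 genes of the TGF-beta pathway 13 were well above background on both arrays, 0 of them at least 2-fold higher on the CD8+ array (all genes 1.96%) and 3 on the CD4+ array (all genes 3.83%), with a median of -0.08. Runx3 had a processed signal of 567 on the CD8+ array and 337 on the CD4+ array, a difference of 0.93 that stayed short of 2-fold, and 1.07 under median scaling, and a further probe gave 0.50. The 3 genes higher on the CD4+ array were the ligand gene Tgfb3 (2.96-fold, 1.79-fold with normexp), the type I receptor gene Tgfbr1 (2.22-fold) and Runx1 (2.05-fold, 1.52-fold with normexp), a relative of Runx3 whose probes ran from -1.04 to 0.01. Tgfbr2, the type II receptor that binds TGF-beta first, had a difference of -0.04. Cdh1, which encodes the ligand E-cadherin itself, had a processed signal of 105.1 on the CD8+ array and 83.5 on the CD4+ array, a difference of 0.51.

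Some dendritic cells also carry αE, so markers of dendritic cells are given beside it. Which of these cells carry αE was not measured. Without integrin genes, 8 of the 8 named dendritic cell markers were well above background on both arrays. Of these, 7 were higher on the CD4+ array. Among all 11961 genes, 5536 were higher on the CD4+ array. The levels of the 8 markers summed to 41.6 on the CD8+ array and 54.2 on the CD4+ array, in units of each array's 75th percentile. The brightest were Bst2 and Cd83, with differences of -0.24 and -0.52. Bst2 made up most of both sums. Its processed signal was 15528 of a summed 18696 on the CD8+ array and 20694 of 27535 on the CD4+ array. The largest differences were those of Cd209a (-3.21), Siglech (-2.65) and Clec10a (-2.59), named for their values. Xcr1, the chemokine receptor of the cross-presenting subset, was the 1 marker higher on the CD8+ array, with a difference of 0.35 by its brightest probe and 3.03 by another. None of the 8 was at background, Zbtb46, Clec9a and Ly75 had no named probe, and the part of these cells in the Itgae signal was not tested.

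**Figure D2:**
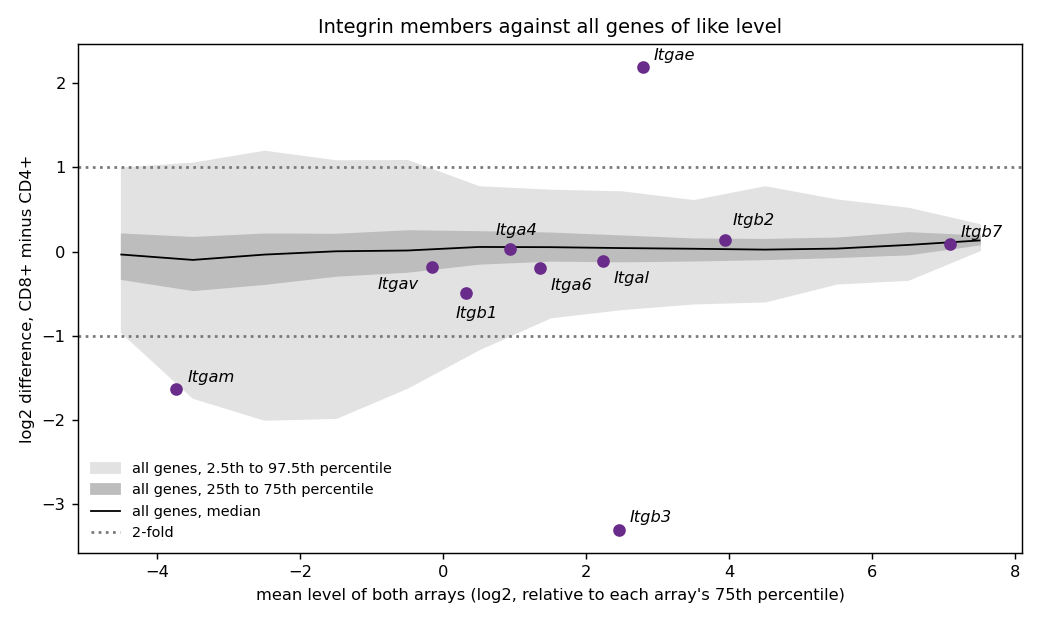
Difference between the CD8+ and the CD4+ array (log2) plotted against the mean level of both arrays for the 10 integrin genes (points), over bands that hold the central shares of all genes of the same level. Itgae at 2.19 and Itgb3 at -3.30 lie outside the wider band, Itgam at -1.64 lies near its edge in the dim range where the band is wide, and the other 7 lie inside the wider band.

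The αVβ3 pair, a receptor for vitronectin and other matrix proteins, differed in its beta chain. Itgb3 (probe A_52_P553890) had a processed signal of 784 ± 78.5 on the CD8+ array and 8745 ± 875 on the CD4+ array. It was 9.87-fold higher in CD4+ cells, a difference of -3.30 with a software error of 0.20. Only 13 of the 11961 genes had a larger difference in that direction, and 0 of the 2769 genes within 1 log2 unit of its level, of which 1.08% were at least 2-fold higher on the CD4+ array. Over 11 other ways of processing the difference ran from -3.35 to -3.10. The gene was measured by 1 probe with 1 spot, so no further probe bears on it. Ways that only change which of a gene's spots or probes are used therefore left the difference at -3.30.

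Itgav, the αV partner, was nearly level. Its probe well above background had 378 ± 37.9 on the CD8+ array and 484 ± 48.5 on the CD4+ array, a difference of -0.18, within the software's error of 0.20. A further probe of Itgav was not well above background on either array and gives no value. The β3 chain was thus 8.70-fold further towards the CD4+ array than its αV partner.

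β3 also pairs with the αIIb chain, encoded by Itga2b, as the fibrinogen receptor of platelets and megakaryocytes. Itga2b passed the background flag in CD8+ cells alone, with 31.3 on the CD8+ array and 15.3 on the CD4+ array. By these dim signals it was 2.32-fold higher in CD8+ cells, the opposite direction to Itgb3, with a software error of 0.39 for the log2 difference. It was 1.27-fold with normexp and 1.48-fold with the authors' series values. Of 11 other named platelet and megakaryocyte markers 8 were well above background on both arrays, with a median difference of 0.16. Of these, 1 marker, F13a1, was at least 2-fold higher on the CD4+ array (all genes 3.83%). The list's levels summed to 2.31 on the CD8+ array and 2.35 on the CD4+ array. Pf4, platelet factor 4, had 150.8 on the CD8+ array and 100.9 on the CD4+ array, Clec1b, the podoplanin receptor, had a difference of -0.25, and Gp1ba and Gp5, subunits of the von Willebrand factor receptor, were not well above background on either. Macrophages carry αVβ3 as well. Their 13 markers summed to 86.5 on the CD8+ array and 108.0 on the CD4+ array, with a median difference of -0.38. The brightest was Vcam1, which was also listed among the ligands and the stromal markers. Its processed signal was 12283 of a summed 38919 on the CD8+ array and 14916 of 54912 on the CD4+ array. Of the 13 markers, 3 were at least 2-fold higher on the CD4+ array (Ccr2, Lyz2 and Marco, named for their values), against 3.83% of all genes. The part of macrophages in the Itgb3 signal was not tested.

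Of 27 ligand genes 14 were well above background on both arrays, 1 at least 2-fold higher on the CD8+ array (all genes 1.96%) and 1 on the CD4+ array (all genes 3.83%), with a median of 0.01. Several ligands of αVβ3 were not measurable. Vtn, vitronectin, and Tnc, tenascin, failed the background flag on both arrays, and Fn1, fibronectin, passed it in CD4+ cells alone. Spp1, osteopontin, a secreted ligand of αVβ3 made by activated T cells and macrophages, had a processed signal of 23.5 on the CD8+ array and 100.9 on the CD4+ array, 3.81-fold higher in CD4+ cells (1.68-fold with normexp).

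The β2 integrins, found only on leukocytes, share the beta chain CD18. Itgb2 had a processed signal of 7276 ± 728 on the CD8+ array and 7469 ± 747 on the CD4+ array, a difference of 0.14. Itgal, the αL chain that makes LFA-1 with it, had 2033 ± 203 on the CD8+ array and 2484 ± 248 on the CD4+ array, a difference of -0.11. Both LFA-1 chains lay within the software's error of 0.20 for each difference, and Itgal turned to 0.03 under median scaling. The LFA-1 ligand genes did not differ alike. Icam1 had 405 on the CD8+ array and 198 on the CD4+ array, 2.31-fold higher in CD8+ cells, while Icam2 had 12751 and 14645, a difference of -0.02. F11r, the junctional adhesion molecule JAM-A, also a ligand of LFA-1, was 1.85-fold higher in CD4+ cells.

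Itgam, the αM chain (CD11b) that makes Mac-1 with β2, is best known from macrophages, neutrophils and NK cells. Its brighter probe (A_52_P669155) had a processed signal of 19.2 ± 3.68 on the CD8+ array and 67.6 ± 7.33 on the CD4+ array, 3.11-fold higher in CD4+ cells, a difference of -1.64 with a software error of 0.32. Its second probe had 7.29 ± 3.40 on the CD8+ array, where it was not well above background, and 23.5 ± 4.06 on the CD4+ array. It gave the same direction, at least 1.41-fold higher in CD4+ cells. Both probes were dim, with the brighter one's signal on the CD8+ array close above 14.7, the lowest signal flagged as well above background there. Of the 2257 genes at a like level 6.91% were at least 2-fold higher on the CD4+ array. The difference shrank to -0.58 with normexp and to -0.71 with the authors' series values, both short of 2-fold.

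Markers of the other cells that carry Itgam did not all lie on one side. Of 7 NK cell markers other than Itga2, 4 were well above background on both arrays with a median difference of -1.18, and their summed level was 1.01 on the CD8+ array and 1.91 on the CD4+ array. Klrb1c (NK1.1) had 73.7 on the CD8+ array and 422 on the CD4+ array, 5.07-fold higher in CD4+ cells (3.14-fold with normexp). Ncr1, dim on the CD8+ array, had 16.4 there and 81.4 on the CD4+ array, a difference of -2.14. Khdc1a passed the background flag in CD4+ cells alone and was at least 2.26-fold higher in them. Gzma, granzyme A, had a difference of -0.22, and Klra8 (Ly49H) was higher on the CD8+ array with 0.44. Klre1 and Klri2 failed the background flag on both arrays. The macrophage and dendritic cell sums given above were also larger on the CD4+ array, and Bst2 made up most of the dendritic cell sum. The 11 named neutrophil markers summed to 3.09 on the CD8+ array and 2.74 on the CD4+ array. The 5 of them measured in both cells had a median of 0.18. S100a9 made up most of both sums. Its processed signal was 1153 of a summed 1392 on the CD8+ array and 1078 of 1395 on the CD4+ array. A further 4, Ngp, Cxcr2, Mmp9 and Retnlg, passed the background flag in CD4+ cells alone, and 0 in CD8+ cells alone. Of these 4, Mmp9 was at least 2.41-fold higher in CD4+ cells. Among all 17176 named genes, 919 passed that flag in CD4+ cells alone and 178 in CD8+ cells alone. S100a9 and S100a8 had differences of 0.27 and -0.03, and the granule genes Elane and Mmp8 were at background. The part of these cells in the Itgam signal was not tested.

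The α4 integrins bind VCAM-1 with β1 and MAdCAM-1 of gut vessels with β7. Itga4 had 3 probes, each well above background on both arrays. The brightest (A_52_P223495) had a processed signal of 868 ± 86.9 on the CD8+ array and 964 ± 96.5 on the CD4+ array, a difference of 0.03. The other 2 gave 0.08 and -0.05, so the sign of this difference is not settled and its size was under the spread between probes. With Itgb7 at 0.09, the chains of α4β7 lay within 0.07 of each other.

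Itgb1, the β1 chain shared by the VLA integrins, was modestly higher in CD4+ cells. One of its probes (A_51_P286527) was printed as 10 spots, which had a processed signal of 475 ± 13.6 (SD over 10 spots) on the CD8+ array and 756 ± 31.8 on the CD4+ array. The spots ran from 449 to 489 on the CD8+ array and from 716 to 822 on the CD4+ array, so they did not overlap. These signals are not scaled, and the CD4+ array was the brighter. On the scaled levels the difference was -0.49 with an SD of 0.05 over spots. Spots of the same probe on the same array are technical repeats and do not measure the spread between cells or mice. The second probe had 187 ± 19.0 on the CD8+ array and 319 ± 32.1 on the CD4+ array, a difference of -0.60. The 2 probes thus gave 1.40-fold and 1.51-fold. A difference of this size is common on these arrays, where 1277 of 11961 genes lay further in the same direction and 3.47% of genes at a like level were at least 2-fold higher on the CD4+ array, and over 11 other ways of processing it ran from -0.54 to -0.35.

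Itga6, the α6 chain that binds laminin with β1, had 1076 ± 108 on the CD8+ array and 1392 ± 139 on the CD4+ array, a difference of -0.20, about the size of the software's error. The 3 alpha chains that pair with β1 here, α4, α6 and αV, had differences of 0.03, -0.20 and -0.18, each less far towards the CD4+ array than β1 at -0.49. Itgb1 was therefore 1.43-fold further towards the CD4+ array than Itga4, 1.23-fold further than Itga6 and 1.24-fold further than Itgav. Of the ligands, Vcam1 had a difference of -0.10 and Madcam1 of 0.04, and the laminin chain genes Lama1, Lama2, Lama4, Lama5 and Lamb1 failed the background flag on both.

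**Figure D3:**
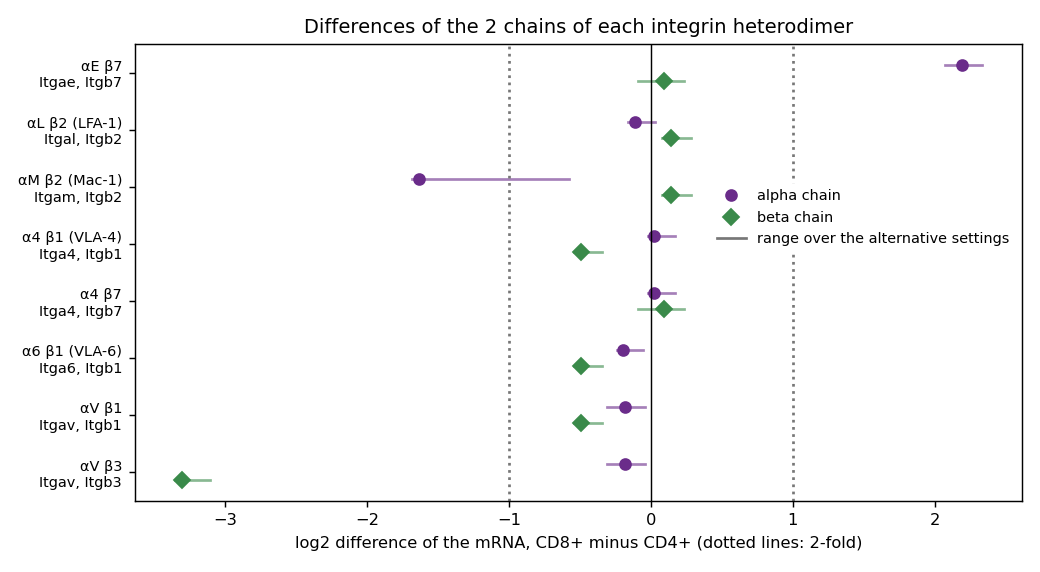
Difference between the CD8+ and the CD4+ array (log2) of the alpha chain (circle) and the beta chain (diamond) of 8 integrin pairs, with lines for the range over the alternative settings. The chains of α4β7 lie together near 0, those of αLβ2 within 0.25 of each other, and those of αEβ7, αMβ2 and αVβ3 lie on opposite sides of a 2-fold line, although the range of αM crosses it.

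Promoter sequence is shown for Itgam, the only gene at least 2-fold apart with a promoter in the reference table, and for Itga4, the alpha chain with nearly equal signal in both cells. The table, from RefSeq, held a promoter for 5 of the 10 genes (Itga4, Itgav, Itgam, Itgb1 and Itgb7). Each sequence runs 5′ to 3′ on the gene's strand from 250 bases before the transcription start to 50 after it, in build GRCm38.p6. Itgam lies at chr7:128062390-128062689 on the plus strand and Itga4 at chr2:79255176-79255475 on the plus strand. Capitals mark, on either strand, the core GAGGAA of Ets factors of the PU.1 type, which are prominent in myeloid cells, the Runx core TGTGGT and the GC box GGGCGG of Sp1.
Itgam: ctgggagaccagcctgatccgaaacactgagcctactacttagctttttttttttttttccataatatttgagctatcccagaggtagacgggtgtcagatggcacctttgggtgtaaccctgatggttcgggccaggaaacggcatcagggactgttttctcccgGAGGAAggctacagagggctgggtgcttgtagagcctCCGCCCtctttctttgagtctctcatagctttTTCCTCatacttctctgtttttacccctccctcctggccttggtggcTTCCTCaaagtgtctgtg
Itga4: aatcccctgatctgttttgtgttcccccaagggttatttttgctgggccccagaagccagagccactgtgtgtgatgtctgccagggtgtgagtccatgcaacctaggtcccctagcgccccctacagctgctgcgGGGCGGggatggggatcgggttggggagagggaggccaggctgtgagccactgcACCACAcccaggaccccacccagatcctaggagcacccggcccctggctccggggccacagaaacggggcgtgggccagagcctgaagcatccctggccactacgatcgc
The Itgam window held 3 matches to GAGGAA or its reverse complement, 1 to GGGCGG and none to TGTGGT. The Itga4 window held 1 match to TGTGGT, 60 bases before the start, 1 to GGGCGG and none to GAGGAA. The member promoters that are not printed also held GAGGAA. Itgav, with a difference of -0.18, had 2 matches, and Itgb1 (-0.49) and Itgb7 (0.09) had 1 each. Presence of this motif therefore did not separate Itgam from members within 2-fold. No matches overlapped. Of 32851 promoter windows of the same length in the table, 28.3% held GAGGAA at least once and 0.685% held it 3 times or more, 16.8% held TGTGGT and 35.7% held GGGCGG. A match describes these letters and is no evidence of binding. A further 3 motifs were looked up and are not shown.

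Beyond the 10 chains, 14 of 17 other genes of the integrin family had a named probe, of which 9 were well above background on both arrays, 1 on each array alone and 3 on neither. Their median difference was -0.34 over the 9 genes, 0 of them at least 2-fold higher on the CD8+ array (all genes 1.96%) and 2 on the CD4+ array (all genes 3.83%). Itgax, the αX chain (CD11c) of dendritic cells, which also pairs with β2, had 785 on the CD8+ array and 2198 on the CD4+ array, 2.48-fold higher in CD4+ cells. Itga7, a laminin receptor chain known from muscle, had 15.8 on the CD8+ array and 56.1 on the CD4+ array, 3.15-fold higher in CD4+ cells but 1.43-fold with normexp.

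The αX chain and the αM chain therefore lay on the same side, away from the beta chain they share, which had a difference of 0.14. Among the better measured of the others, Itga9, which pairs with β1, had 510 on the CD8+ array and 731 on the CD4+ array, a difference of -0.34, and 0.01 by a second probe. Itgb5, a beta partner of αV, had 2246 on the CD8+ array and 2707 on the CD4+ array, a difference of -0.09 that turned positive under median scaling. The dim chains Itga1, Itga3, Itga5, Itga8 and Itgb4 had differences between -0.70 and 0.94, with processed signals of 15.8 to 76.8 for all 6 dim genes including Itga7. With normexp Itga1 went to -0.01 and Itga5 turned to 0.05, while Itga8 had 0.34 with normexp but 1.09 under median scaling, 1.12 with quantile and 1.07 with loess normalization. Itga3 turned to -0.04 with normexp and -0.08 as the mean over probes. Itga11 passed the flag in CD4+ cells alone and was at least 1.20-fold higher in them (1.01-fold with normexp). Itga2, the collagen receptor chain of NK cells and platelets, Itgb6 and Itgbl1 failed it on both arrays, and Itga10, Itgad and Itgb8 had no named probe.

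Of 29 genes of inside-out activation 26 were well above background on both arrays, and 0 were at least 2-fold apart in either direction, with differences from -0.42 to 0.53 and a median of 0.03. Since 94.2% of all genes were also within 2-fold, this count is close to the background. Tln1, talin, had a processed signal of 5314 on the CD8+ array and 4732 on the CD4+ array, a difference of 0.34. Fermt3, the kindlin of blood cells, had 2154 on the CD8+ array and 2507 on the CD4+ array, a difference of -0.04.

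At the ends of this list stood Sipa1, which turns off the GTPase Rap1 that drives integrin activation, with a difference of 0.53, Slc3a2 (CD98), which binds beta tails, with 0.44, and the adaptor gene Skap2 with -0.42. Tln2, the second talin, passed the flag in CD8+ cells alone and was at least 1.75-fold higher in them (1.30-fold with normexp). Of 31 genes that link bound integrins to the cytoskeleton and to kinases, 25 were well above background on both arrays, 0 at least 2-fold apart, with a median of 0.10 and differences from -0.40 to 0.89, again a count close to the 94.2% of all genes within 2-fold. Zyx, zyxin of focal adhesions, had 30190 on the CD8+ array and 19472 on the CD4+ array, 1.75-fold higher in CD8+ cells, and the paxillin gene Pxn was 1.35-fold higher there. The dim genes Lims2, a PINCH adaptor, and Bcar1, the scaffold p130Cas, had differences of 0.89 and 0.77, which became 0.28 and 0.32 with normexp, and Lims2 reached 1.07 after quantile normalization.

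Of 26 genes for receptors and enzymes that act with integrins in homing and adhesion, 23 were well above background on both arrays, 4 at least 2-fold higher on the CD8+ array and 3 on the CD4+ array (all genes 1.96% and 3.83%), with a median of 0.09. Whether this list differs from the other lists was not tested. Ccr9, the chemokine receptor of gut-homing cells that acts with αEβ7 and α4β7, had a processed signal of 3880 on the CD8+ array and 698 on the CD4+ array, a difference of 2.65. Crtam and Cd226, adhesion receptors of cytotoxic cells, had differences of 2.18 and 1.51, but the probes of Cd226 ran from 0.31 to 1.51. The other gene higher in CD8+ cells was the sialyltransferase gene St3gal6, at 2.35-fold. Higher in CD4+ cells were Gcnt1 (2.63-fold, 1.97-fold with normexp, with probes from -1.40 to -0.46) and Fut7 (2.27-fold), enzymes that build selectin ligands, and the adhesion molecule gene Alcam (2.09-fold). St3gal6, Fut7 and Alcam are named because of their values. With normexp 3 genes of the list were at least 2-fold higher in CD8+ cells, Ccr9, Crtam and Cd226 without St3gal6, and 0 in CD4+ cells.

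**Figure D4:**
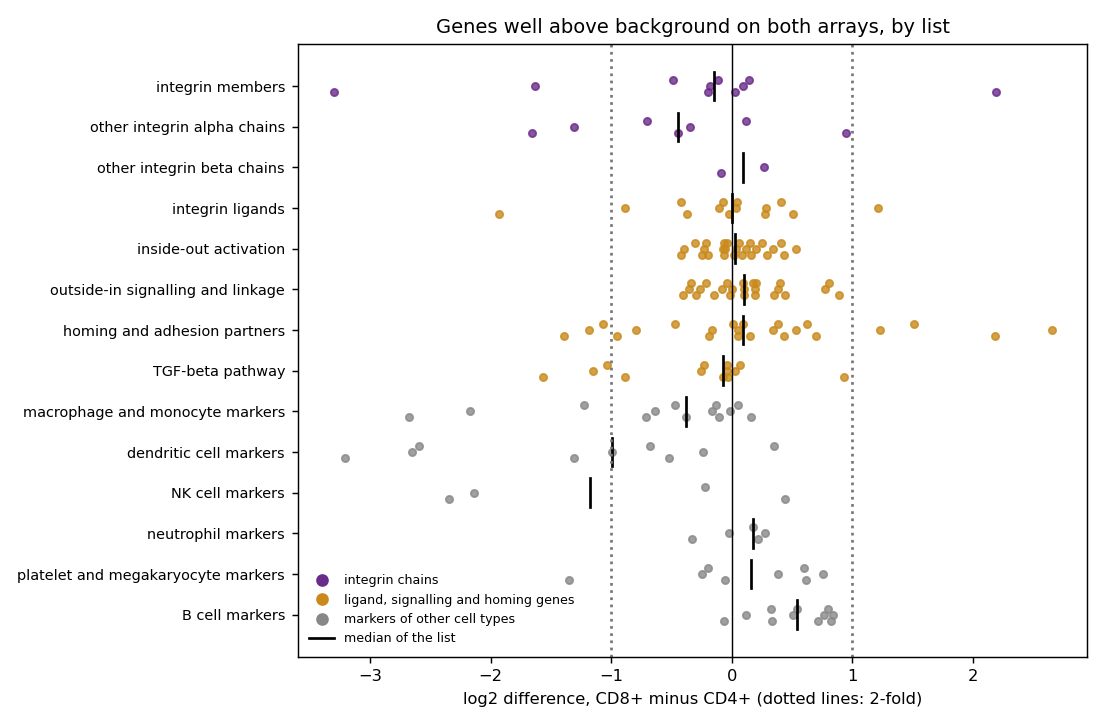
Difference between the CD8+ and the CD4+ array (log2) of each gene well above background on both arrays, by list, with a bar for each list's median. Activation and linkage genes stay inside the dotted 2-fold lines, the integrin chains reach from -3.30 to 2.19, and most macrophage, dendritic and NK cell markers lie left of 0. Of the 11 B cell markers, 10 lie right of 0.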

How the data were processed

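Total RNA of each sorted cell type was amplified, labelled with Cy3 and hybridised to 1 array, per the labels' protocols. In the deposited scanner files the values are linear spot intensity. Per the file headers, the software was Feature Extraction 10.1.1.1 with a grid of build mm9, whereas version 9.1 stands in the submitters' processing notes. The processed intensity is background-subtracted by that software and not scaled between the arrays. The authors' value table equals the raw median intensity at 45018 of 45018 spots on each array.

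Signals were put on the log2 scale, and the 75th percentile of an array's non-control spots was subtracted. Control and outlier-marked spots (92 on the CD8+ array and 99 on the CD4+ array) were left out, saturated spots were kept, and spots of a probe were averaged. A gene took its brightest probe well above background on both arrays, or else on 1. Where only 1 array had it above background, the dim side takes its measured level or, if larger, the lowest flagged level of its array. With the lowest flagged level the difference is a bound. With the measured level, as for Itga2b, it is the measured difference. Names came from a RefSeq table of GRCm38.p6, used for names, which matched 24840 of 41170 probes. Its promoter sequences carry coordinates of that build.

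The members and lists were chosen with earlier results of these data known. The text names the 10 members, the other integrin genes, the 4 largest differences of each pathway list, Tln1, Fermt3, Cdh1, Icam1, Vcam1, Madcam1, Cd4, Cd8a and the 2 brightest markers of each cell type used, plus genes named as chosen for their values and further list members given as context. Erythroid, B cell, plasma cell and stromal markers were listed too. Their median differences were -0.20, 0.54, -0.63 and -0.10. The software's spot error covers neither cells nor mice. On simulated data for this comparison, with 200 of 11961 genes changed, 2-fold was passed by 50 of 50 genes raised by 3 (log2), 48 of 50 raised by 1.5 and 0 of 11761 unchanged genes. The simulated noise was the SD of 0.23 between probes, alike at every level, although dim genes had 0.39. Every probe was taken as detected, and variation between cells or mice was left out. The 0 is therefore no rate of false calls for these arrays. Normexp (on the median signal), quantile and loess values came from limma 3.58.1 under R 4.3.3, all else from Python 3.11.15 with pandas 2.3.3 and numpy 2.4.6.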

Additional observations from a re-analysis of the deposited data

How the results depend on the processing

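The count of integrin genes at least 2-fold higher on the CD8+ array was 1 and the count on the CD4+ array 2. The CD4+ count was 1 with normexp background correction (offset 50), with the authors' series values, with brighter probes alone and with a 4-fold threshold. In the first 2 of these Itgam, the dimmest gene, fell short of 2-fold, and brighter probes alone left it out. The median of the members was -0.15 and became -0.005 under median scaling, which moves all genes alike by 0.14. Itgae and Itgb3 stayed past 4-fold in each alternative run for them. Each has 1 probe with 1 spot, so alternatives that only change which of a gene's spots or probes are used could not move them. Signs near 0 turned for Itgal, Itga4 and Itgb7 in at least 1 alternative. Over all genes, counts of 234 higher on the CD8+ array and 458 on the CD4+ array became 122 and 220 with normexp, 140 and 269 with the authors' series values, 86 and 90 with brighter probes alone and 616 and 1277 with no filter on detection. The other alternatives were scaling to the median or over spots detected on both arrays, quantile and loess normalization, leaving out saturated spots, keeping outlier spots, the mean over probes and a 1.5-fold threshold, and, for Itga4, Itgam and Itgb1 alone, each further probe on its own. Naming probes by a gene name column was not run, since the columns of the scanner files used here hold accessions and no gene names. No paired analysis was possible because each cell type has 1 array. Signal over background limits Itgam, Itga7, Itga2b and the other dim chains most.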
